A study of Homo sapiens with 4 samples.

Results

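Interferon-stimulated and innate sensing genes were followed across 4 established human germ cell tumour lines, each hybridized to 1 single-colour expression array. The set was given as a list of 41 gene symbols covering interferon receptors, their kinases and transcription factors, nucleic acid sensors and antiviral effectors, with BST2 and ISG15 as its markers. Of these, 39 had a probe set assigned to that gene alone, out of 19775 genes measured in all. The other 2, STAT2 and DDX58, were not analysed here. TCam-2 stands for seminoma and was grown in RPMI-1640 medium. The non-seminoma lines were NT2D1 (teratoma, from a lung metastasis), GCT44 (yolk sac tumour) and GCT27 (embryonal carcinoma), grown in Dulbecco's medium. All cultures held 10% fetal bovine serum with antibiotics, the tumours of origin were testicular, and the labels name no interferon or other treatment. NT2D1 is commonly handled as pluripotent embryonal carcinoma cells and does not model differentiated teratoma tissue. The contrast of interest in the study was seminoma against the 3 non-seminoma lines.

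Interferons are secreted proteins that cells release on sensing viral nucleic acid. Type I interferons bind a receptor made of IFNAR1 and IFNAR2, and interferon gamma binds one made of IFNGR1 and IFNGR2. The kinases JAK1 and TYK2 then activate STAT proteins, which with IRF9 enter the nucleus and bind a promoter motif called the interferon-stimulated response element. The genes switched on there block viral entry, translation, replication or release. Pluripotent and embryonal carcinoma cells are known for a weak interferon response, and some of these effectors are expressed in them without added interferon.

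With 1 array a line, differences have no replicate error, and precision is limited by how few arrays there are. Values are deposited linear intensities in arbitrary units. Intensities under 76.4, the median of all values, were raised to that floor before any fold was taken, since dim probe sets give no reliable order. Folds against a floored value are lower bounds, marked "at least". The size rule called a gene in a line where its value was 4-fold or more above, or below, that of every other line. It is no test. Of the 39 members 33 reached the floor in some line and were compared, among 14926 genes. Of the 33, 21 were above the floor in every line (63.6%, against 66.3% of all genes), and 12 had all lines within 2-fold of each other (36.4%, against 45.6%). Line markers followed the labels for TCam-2, where SOX17 had 3819 units and at most 44.2 elsewhere, and for GCT44, where APOA2 had 30689 and at most 89.2 elsewhere. TFAP2C and CXCR4 were also called higher in TCam-2, at 20557 and 11729 units, and FOXA2 in GCT44, at 6631 units. SOX2 had 20575 units in NT2D1 and 18309 in GCT27, and CD24 had 26123 and 29376 units there. CD24 was also bright in TCam-2, at 15790 units, where SOX2 had 391. DNMT3B had 11360 units in NT2D1 and 23760 in GCT27, against 2841 in TCam-2 and 2377 in GCT44. The yolk sac marker AFP was dim, with 372 units in GCT44 and at most 126 elsewhere, and was not called. GCT44 was called lower for SOX2 (6.41), CD24 (8.61) and TFAP2C (72.3). Array medians lay between 73.6 and 79.3 units. The ACTB ratio of 3' to 5' probe sets was 4.21 on the GCT44 array and 2.49 to 2.97 on the others, and its part in the results was not tested.

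Promoter sequences are shown for BST2, the member set apart in TCam-2, and for IFIT1, ISG15 and IFITM1, the members with the widest margins in GCT27. Each line gives the 160 bases before the annotated gene start, 5′ to 3′ on the gene's strand, from RefSeq on GRCh38.p14. Capitals mark matches to the core of the interferon-stimulated response element, GAAANNGAAA or its reverse complement TTTCNNTTTC.
BST2: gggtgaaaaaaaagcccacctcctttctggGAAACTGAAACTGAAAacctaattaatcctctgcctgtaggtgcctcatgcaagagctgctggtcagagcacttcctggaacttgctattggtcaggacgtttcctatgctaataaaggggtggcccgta
IFIT1: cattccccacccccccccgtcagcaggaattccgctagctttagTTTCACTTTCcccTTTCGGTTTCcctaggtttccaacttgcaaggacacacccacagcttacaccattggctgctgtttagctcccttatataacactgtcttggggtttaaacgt
ISG15: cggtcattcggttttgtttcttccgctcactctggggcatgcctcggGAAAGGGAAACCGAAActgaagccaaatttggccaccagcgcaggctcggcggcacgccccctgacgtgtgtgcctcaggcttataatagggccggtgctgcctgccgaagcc
IFITM1: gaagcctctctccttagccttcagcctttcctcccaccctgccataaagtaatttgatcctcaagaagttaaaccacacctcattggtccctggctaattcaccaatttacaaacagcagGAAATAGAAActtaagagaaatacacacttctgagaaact
These windows lie at chr19:17405631-17405790 (minus strand), chr10:89392463-89392622 (plus), chr1:1013337-1013496 (plus) and chr11:313880-314039 (plus), in the order shown. BST2 and ISG15 each hold 2 overlapping matches, IFIT1 holds 2 separate ones and IFITM1 holds 1. The matches begin 130 bases before the start in BST2, 116 in IFIT1, 113 in ISG15 and 40 in IFITM1. In the 250 bases before the start, BST2 has 2 CpG dinucleotides, IFIT1 has 4, ISG15 has 17 and IFITM1 has 0, against a median of 11 over 35116 promoters.

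A promoter window was available for 31 of the 41 members, and 17 of these (54.8%) held the motif in either orientation within 250 bases before a start. The share was 3.71% of 27305 genes with a window. Besides the genes shown, these were IFI27, IFI44, IFI44L, IFI6, IFIH1, IFIT3, IFIT5, IFITM3, ISG20, MX1, OAS3, RSAD2 and TRIM5. The windows of EIF2AK2, IFI16, IFI35, IFNAR1, IFNGR1, IFNGR2, IRF1, IRF9, JAK1, OAS1, SAMHD1, STAT2, TLR3 and TYK2 held no match. The gamma-activated site TTCNNNGAA, which reads the same on both strands, occurred in 9 of the 31 members and in 8.09% of all genes with a window, BST2 and IRF1 among the members. A match is a description of the letters and not evidence of binding.

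All 4 receptor genes were above the floor in every line with the probe sets kept. IFNAR1, a chain of the type I receptor, had 181 units in TCam-2, 116 units in NT2D1, 131 units in GCT27 and 194 units in GCT44. Its partner IFNAR2 had 536, 998, 623 and 1079 units in the same order of lines. IFNGR1, the binding chain for interferon gamma, had 2093, 1987, 2911 and 3538 units, and the second chain IFNGR2 had 1959, 2407, 1311 and 1398 units. With these probe sets no receptor spanned more than 2.01-fold over the 4 lines. Other probe sets gave wider spans. A second one for IFNAR2 had 246 units in TCam-2, 312 units in NT2D1, 77.6 units in GCT27 and 495 units in GCT44, 6.38-fold from lowest to highest. A second one for IFNAR1 had 235 units in TCam-2, 125 units in NT2D1, 228 units in GCT44 and a value below the floor, 58.5, in GCT27, a span of at least 3.07-fold. The probe sets of IFNAR1 were highest in 3 different lines, and the highest line also differed between probe sets for IFNAR2 and IFNGR1, so no order of the lines can be given for these genes.

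The kinase JAK1, which serves both receptors, had 2466 units in TCam-2, 1110 units in NT2D1, 2720 units in GCT27 and 1782 units in GCT44. TYK2, the kinase bound to IFNAR1, had 231, 117, 225 and 179 units in that order. IRF9, the DNA-binding subunit of the complex that recognises the response element, had 166, 132, 110 and 259 units. NT2D1 was lowest for both kinases but lay within 1.61-fold of the next line. The transcription factor IRF3, which is activated by sensors, was flat with 226, 180, 228 and 182 units. IRF7, which amplifies type I interferon production, had 223 units in TCam-2 and 128 in NT2D1, and lay below the floor in GCT27 (67.1) and GCT44 (67.7). IRF1, a regulator of basal antiviral genes, was below the floor in TCam-2 (19.7) and had 93.4 units in NT2D1, 78.8 units in GCT27 and 112 units in GCT44, all close to the floor. None of these 6 genes met the size rule in any line.

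The interferon genes themselves gave almost no signal above the floor. Of 18 interferon ligand genes measured, 14 lay below the floor in every line, among them IFNB1 at 3.41 to 8.20 units. The other 4 were IFNA10, IFNA17, IFNL1 and IFNL2, and the highest value of any ligand was 124 units, for IFNL1 in GCT27. The receptor chain IL10RB, which is shared by the lambda interferon receptor, had 912 units in GCT44 and 1090 in TCam-2, against 354 in NT2D1 and 320 in GCT27.

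Among the sensors, IFI16 was highest in the seminoma line. IFI16, a nuclear and cytosolic DNA sensor, had 5139 units in TCam-2, against 562 in GCT44, 966 in GCT27 and 1838 in NT2D1. TCam-2 lay 2.80-fold above the next line, short of the 4-fold rule. All 3 of its probe sets gave the lines in that same order, and the pair of others had 5247 and 1237 units in TCam-2. IFIH1, the cytosolic sensor of long double-stranded RNA also called MDA5, was above the floor only in GCT27, at 103 units, against 8.5 in GCT44, 5.08 in NT2D1 and 40.9 in TCam-2. TLR3, the endosomal receptor for double-stranded RNA, had 157 units in NT2D1 and 172 in GCT27 and was below the floor in TCam-2 (72.2) and GCT44 (30.5). Its higher value was 2.26-fold above the floor level of the other lines.

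**Figure D1:**
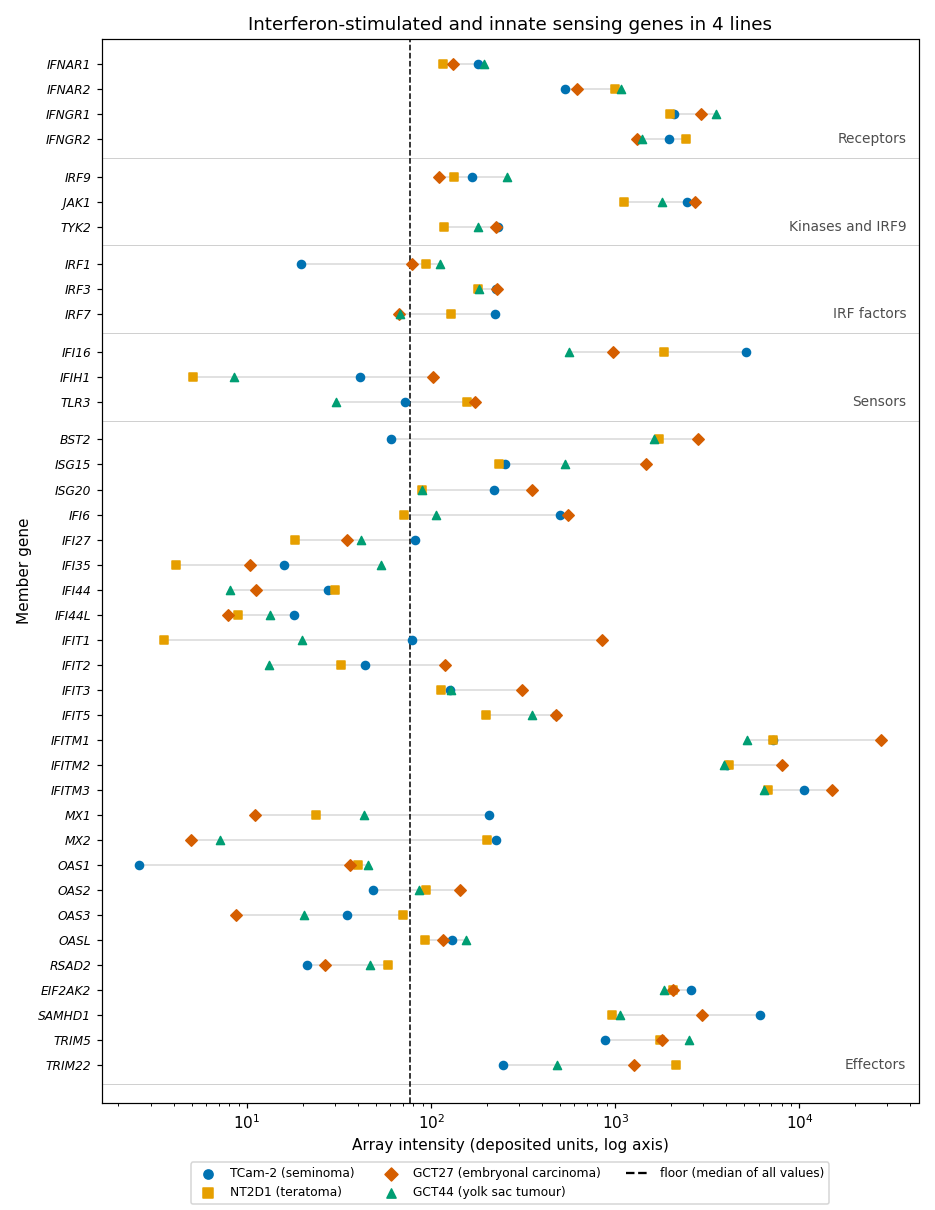
Array intensity of the 39 measured members (log axis, deposited units), grouped by role, with 1 point per cell line and the floor of 76.4 units as a dashed line. BST2 lies below the floor in TCam-2 alone, IFIT1 stands apart in GCT27 at 843 units, and each receptor is above the floor in every line.

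BST2, also called tetherin, is a membrane protein that holds budding virus particles at the cell surface, and it was the one member called in the seminoma line. It had 60.2 units in TCam-2, against 1618 in GCT44, 2813 in GCT27 and 1719 in NT2D1. TCam-2 was below the floor and at least 21.2-fold lower than the nearest line, while the other 3 lines lay within 1.74-fold of each other. In such bulk samples fewer expressing cells and less RNA per cell cannot be told apart, nor can medium and subtype for this line. The gene has a single probe set. BST2 was the 1 of 33 members (3.03%) lower in TCam-2, against 0.744% of all genes compared, and 0 members were higher there, against 1.49% of all genes.

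The contrast of TCam-2 against the 3 non-seminoma lines was also fitted with limma across all 14926 genes. Its 2 residual degrees of freedom reflect spread between subtypes, and TCam-2 is taken to vary to the same extent. No member and no other gene passed an adjusted p of 0.05 (0% of genes). At an unadjusted p under 0.05, limma gave 2 of 33 members, BST2 and IFI16, against 6.05% of all genes. For BST2 the log2 difference was -5.04 (SE 0.59) with an adjusted p of 0.367 in limma, and the adjusted p lay between 0.0771 and 0.907 over the alternatives. For IFI16 it was 2.36 (SE 0.79) with an adjusted p of 0.788 in limma. The size for BST2 uses a TCam-2 value below the floor and is not measured. With 4 arrays an exact permutation test of 1 line against 3 cannot give a p below 0.25.

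Other members leaned toward TCam-2 by less than the rule. A 2-fold margin over the nearest line was met by 3 of 33 members there, IFI16, SAMHD1 and MX1, against 4.62% of all genes. In the other direction this margin was met by 1 member, BST2, against 3.13% of all genes. SAMHD1, a dNTP hydrolase that limits reverse transcription, had 6098 units in TCam-2, against 1055 in GCT44, 2946 in GCT27 and 957 in NT2D1. Of its 6 probe sets 5 had a value above the floor, and each of the 5 was highest in TCam-2 with GCT27 second. MX1, a dynamin-like GTPase that blocks viral ribonucleoproteins, had 207 units in TCam-2 and lay below the floor in the other lines, at 43.2 units or less, at least 2.71-fold higher in TCam-2. Its neighbour on chromosome 21, MX2, had 224 units in TCam-2 and 202 in NT2D1, against 4.97 in GCT27 and 7.14 in GCT44, both below the floor. The MX genes thus shared TCam-2 as their highest line and differed in NT2D1. In the direction of lower values, the retroviral restriction factors TRIM5 and TRIM22 had their lowest values in TCam-2. TRIM22 had 246 units in TCam-2, against 482 in GCT44, 1268 in GCT27 and 2137 in NT2D1, a 1.96-fold margin below GCT44. TRIM5 had 883 units in TCam-2, against 2513 in GCT44, 1788 in GCT27 and 1749 in NT2D1. A second probe set for TRIM5 lay below the floor in every line.

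**Figure D2:**
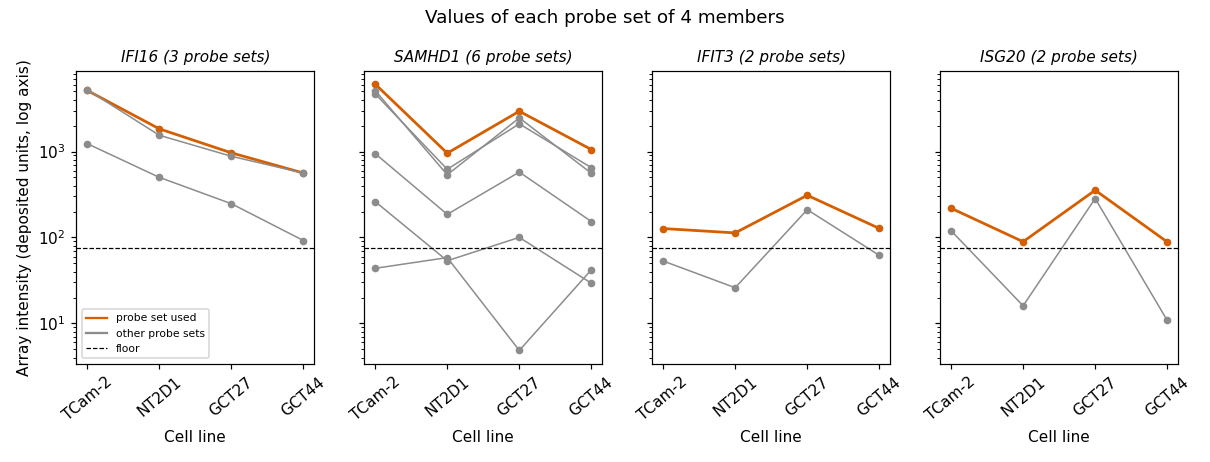
Array intensity (log axis, deposited units) of every probe set of IFI16, SAMHD1, IFIT3 and ISG20 in the 4 cell lines; lines join the values of 1 probe set, the probe set used is in orange and the floor of 76.4 units is dashed. IFI16 and SAMHD1 are highest in TCam-2 and IFIT3 and ISG20 in GCT27 for each probe set with a value above the floor.

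The embryonal carcinoma line GCT27 had the highest value for 15 of 33 members (45.5%), against 24.8% of all genes compared. Of these, IFIH1 and IFIT2 were above the floor in GCT27 alone, so the filter fixed their highest line. IRF3 (1.01-fold above the next line), IFI6, TLR3 and JAK1 (1.10-fold each) were near ties. With no filter the count was 15 of 39 members in GCT27, against 18.7% of all genes. IFIT1, which binds viral RNA lacking host cap methylation, was the 1 member called higher there (3.03%, against 0.603% of all genes). It had 843 units in GCT27, against 19.8 in GCT44, 3.54 in NT2D1 and 79.1 in TCam-2, and in NT2D1 and GCT44 it lay below the floor. The margin over TCam-2 was 10.7-fold. GCT27 was thus the only line with IFIT1 clearly above the floor, since TCam-2 lay next to it.

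ISG15, a ubiquitin-like modifier attached to newly made proteins, had 1465 units in GCT27, against 530 in GCT44, 235 in NT2D1 and 252 in TCam-2, a 2.77-fold margin. IFITM1, a membrane protein that hinders viral fusion, had 27884 units in GCT27, against 5166 in GCT44, 7191 in NT2D1 and 7181 in TCam-2, a 3.88-fold margin just short of the rule. IFIT3, a partner of IFIT1, had 310 units in GCT27, against 127 in GCT44, 113 in NT2D1 and 127 in TCam-2, and its second probe set was also highest in GCT27, at 211 units. With IFIT1 these made 4 of 33 members (12.1%) at least 2-fold above the nearest line, against 3.16% of all genes. All 4 carry the response element motif in the promoter windows described above, a feature looked up after their values were seen. ISG15 and IFITM1 each rest on 1 probe set of a kind that can match several transcripts. Without probe sets of such kinds, 2 of 12 effector members compared met the 2-fold margin in GCT27, against 3.25% of all genes.

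The clusters in which these genes lie were not uniformly higher in GCT27. IFIT1, IFIT2, IFIT3 and IFIT5 lie in a cluster on chromosome 10, with IFIT1B among them. IFIT2 was above the floor only in GCT27, at 119 units, against 13.2 in GCT44, 32.5 in NT2D1 and 43.8 in TCam-2. IFIT5 had 474 units in GCT27, against 355 in GCT44, 200 in NT2D1 and 477 in TCam-2. IFITM1, IFITM2 and IFITM3 lie side by side on chromosome 11, and all were highest in GCT27 and lowest in GCT44. IFITM2 had 8012 units in GCT27, against 3873 in GCT44, 4169 in NT2D1 and 4031 in TCam-2. IFITM3 had 15125 units in GCT27, against 6412 in GCT44, 6769 in NT2D1 and 10536 in TCam-2. These near-identical family members are measured by probe sets of the kinds that can match several transcripts, so the split of signal among them is uncertain.

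A further group of effectors was shared by GCT27 and TCam-2. Among members, 3 of 33 (9.09%) had both of these lines at least 2-fold above the other pair, against 1.76% of all genes. This split was chosen after the values were seen. IFI6, a mitochondrial and endoplasmic reticulum protein that limits apoptosis and flavivirus replication, had 551 units in GCT27 and 502 in TCam-2, against 106 in GCT44 and 71.5, below the floor, in NT2D1. ISG20, an exonuclease that degrades RNA, had 355 units in GCT27 and 219 in TCam-2, against 89.3 in NT2D1 and 88.7 in GCT44. Its second probe set had 284 units in GCT27 and 120 in TCam-2, with NT2D1 and GCT44 below the floor. There TCam-2 lay less than 2-fold above the floor, so that probe set did not meet the measure. SAMHD1 was the third. By the same measure TRIM22 and TLR3 were shared by NT2D1 and GCT27 (6.06% of members, against 2.53% of all genes), MX2 by TCam-2 and NT2D1 (3.03%, against 0.978%) and ISG15 by GCT27 and GCT44 (3.03%, against 0.965%). No member was shared in this way by NT2D1 and GCT44 (1.25% of all genes) or by TCam-2 and GCT44 (1.41%).

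Several classical interferon-induced effectors were above the floor in no line. IFI35, IFI44, IFI44L, OAS1, OAS3 and RSAD2 lay below the floor on all arrays, where values have no order. IFI35 lay between 4.13 and 53.2 units, IFI44 between 8.10 and 30.2, and IFI44L between 7.86 and 18.0. OAS1 lay between 2.58 and 45.2 units, OAS3 between 8.71 and 70.02, and RSAD2, also called viperin, between 21.1 and 58.2. The oligoadenylate synthetases make the messenger that activates RNase L, and of the other family members OAS2 had 143 units in GCT27, 94.1 in NT2D1, 85.7 in GCT44 and a value below the floor, 48.5, in TCam-2. OASL, a relative that enhances RNA sensing, had 130 units in TCam-2, 92.0 units in NT2D1, 115 units in GCT27 and 155 units in GCT44. The other probe sets of OAS2 and OASL lay below the floor in every line. IFI27 lay above the floor only in TCam-2, at 81.5 units, against 41.4 in GCT44, 35.0 in GCT27 and 18.1 in NT2D1. EIF2AK2, the double-stranded RNA-activated kinase PKR that stops translation, was bright in every line, with 2592 units in TCam-2, 2065 units in NT2D1, 2057 units in GCT27 and 1836 units in GCT44, although the dimmest of its 3 probe sets was highest in GCT27.

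NT2D1 and GCT44 had no member called in either direction (0 of 33 in each direction). Over all genes the shares were 0.523% higher and 0.241% lower in NT2D1, and 1.7% higher and 1.69% lower in GCT44. In GCT27, 0 members were lower, against 0.322% of all genes. At the 2-fold margin there were again 0 members in either direction in NT2D1 (2.81% of all genes higher, 1.98% lower) and in GCT44 (4.86% higher, 4.45% lower), and 0 lower in GCT27 (1.86%). NT2D1 was the highest line for 2 members, TRIM22 and IFNGR2 (6.06%, against 23.6% of all genes), and the lowest for 11 (33.3%, against 17.8%). GCT44 was the highest line for 7 members (21.2%, against 26.9%), 3 of them receptors whose highest line depended on the probe set, and the lowest for 6 (18.2%, against 21.9%). TCam-2 was the highest line for 9 members (27.3%, against 24.7%) and the lowest for 6 (18.2%, against 20.8%). These counts moved when the arrays were scaled to spiked-in controls, and so did the shares of all genes. GCT27 was then the highest line for 20 members (against 40.6% of all genes), TCam-2 for 8 (23.7%), NT2D1 for 4 (22.9%) and GCT44 for 1 (12.8%). With that scaling GCT44 was the line most often lowest, for 11 members (against 35.6% of all genes), and NT2D1 was lowest for 8 (15.4%). For the 20 effector members compared, the median log2 difference between each line and the other 3 averaged came to 0.86 in GCT27, -0.06 in TCam-2, -0.39 in GCT44 and -0.49 in NT2D1. Over all genes it was -0.02 in GCT27, -0.06 in TCam-2, -0.04 in GCT44 and -0.03 in NT2D1. With no filter the median in GCT27 fell to 0.59 over 26 effector members, against 0.0 over all genes.

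**Figure D3:**
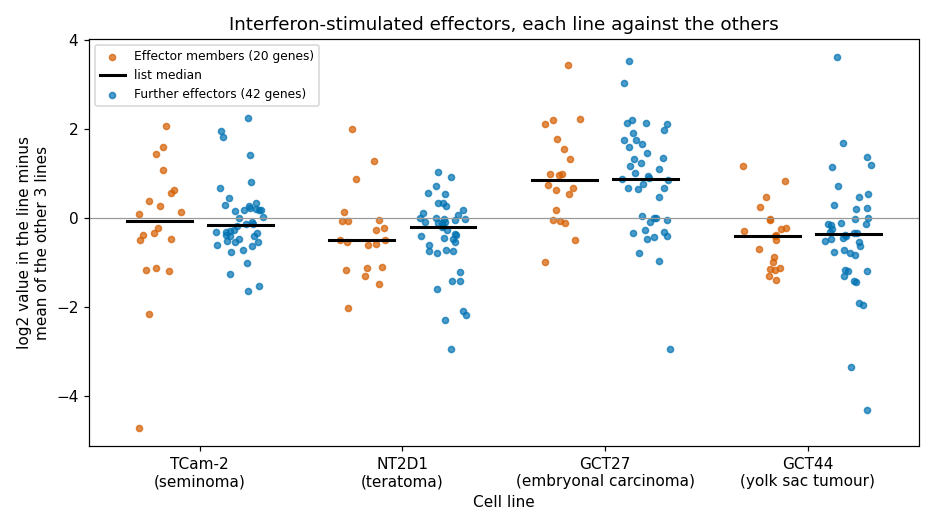
Difference on the log2 scale between each cell line and the mean of the other 3, for the 20 effector members and 42 further interferon-stimulated effectors compared; each point is 1 gene and bars are list medians. The medians are 0.86 and 0.89 in GCT27 and at or below -0.06 in the other lines. With no filter those in GCT27 are 0.59 over 26 effector members and 0.47 over 55 further effectors (not shown).

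A second list of 60 further interferon-stimulated effectors held no member of the first, and 42 of them were compared. It was chosen with earlier results of these data known and read on the same arrays, so it is no independent check. GCT27 was the highest line for 27 of the 42 (64.3%), against 24.8% of all genes, and 12 of the 42 were at least 2-fold above the nearest line, against 3.16% of all genes. PSMB8, PSMB9 and DDX60L were above the floor in GCT27 alone, so the filter fixed their highest line, and DDX60L only touched the floor (76.4 units). With no filter GCT27 was highest for 27 of 55 (49.1%), against 18.7% of all genes. The list had a median log2 difference of 0.89 for GCT27 against the others' mean, and 0.47 over the 55 with no filter. The 4-fold rule was met by 3 of the 42 in GCT27 (7.14%), against 0.603% of all genes. APOBEC3B, a cytidine deaminase acting on foreign DNA, had 1479 units in GCT27, against 225 in GCT44, 27.7 in NT2D1 and 124 in TCam-2. PSMB8, an immunoproteasome subunit, had 336 units in GCT27 and lay below the floor in the others, at least 4.40-fold higher. TRIM25, the ubiquitin ligase that activates RNA sensing, had 2106 units in GCT27, against 67.3 in GCT44, 431 in NT2D1 and 519 in TCam-2. Its margin of 2.02 on the log2 scale was 1.29 with the median over its probe sets and 1.91 with arrays centred on the median, both short of the rule.

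Genes of this second list with 2-fold margins in GCT27 included HERC5, the ligase that attaches ISG15, and UBE2L6, the conjugating enzyme of the same pathway. HERC5 had 6055 units in GCT27, against 1855 in GCT44, 959 in NT2D1 and 1465 in TCam-2. UBE2L6 had 948 units in GCT27, against 237 in GCT44, 420 in NT2D1 and 159 in TCam-2. These genes were picked after their values were seen, and USP18, the protease that removes ISG15, had 386 units in TCam-2, 182 units in NT2D1, 135 units in GCT27 and a value below the floor, 12.5, in GCT44. The peptide transporter TAP1 had 403 units in GCT27, against 117 in GCT44, 22.5 in NT2D1 and 118 in TCam-2, and the immunoproteasome subunit PSMB9 had 232 units there and values below the floor elsewhere. The remaining ones were APOBEC3G, HERC6, PARP9, DTX3L and LGALS3BP. In TCam-2, 0 of the 42 met the 4-fold rule (1.49% of all genes higher, 0.744% lower). At the 2-fold margin LAMP3 and SLFN5 were higher there (4.76%, against 4.62% of all genes) and 0 were lower (3.13%).

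**Figure D4:**
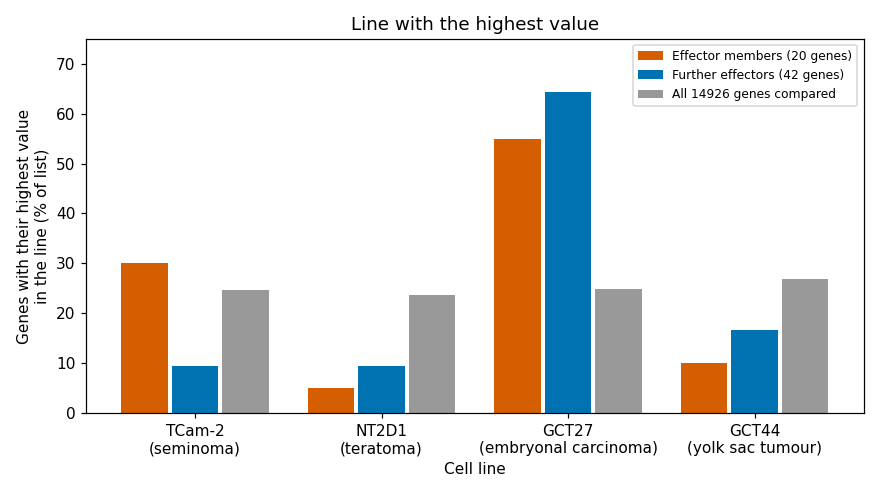
Share of genes whose highest value of the 4 lay in each cell line, for the 20 effector members, the 42 further effectors and all 14926 genes compared (percent of the list, bars start at 0). GCT27 holds 55% of effector members and 64.3% of further effectors, against 24.8% of all genes. Genes above the floor in 1 line alone count for that line, in the lists and among all genes.

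In the yolk sac tumour line 2 further effectors and 1 adaptor were called lower. NMI, an interferon-induced STAT-interacting protein, had 86.2 units in GCT44, against 2015 in GCT27, 1181 in NT2D1 and 2106 in TCam-2. MYD88, the adaptor of most Toll-like receptors, had 101 units in GCT44, against 534 in GCT27, 1400 in NT2D1 and 966 in TCam-2. TRIM25 was the third. These were 2 of 42 effectors (4.76%) and 1 of 17 sensors and adaptors compared (5.88%), against 1.69% of all genes. None of either list was called higher in GCT44 (1.7% of all genes). At the 2-fold margin 4 of the 42 were higher there (9.52%, against 4.86% of all genes), namely ZC3HAV1, GBP2, GBP4 and EPSTI1. As many were lower (9.52%, against 4.45%). Of the 17, TRAF3 was higher and MYD88 lower by that margin. The mitochondrial adaptor MAVS had 926 units in GCT44, 1745 units in TCam-2, 655 units in NT2D1 and 252 units in GCT27, and TBK1, the kinase that activates IRF3, had 1622, 2944, 2082 and 3161 units in that order of lines. Of 13 further signal transducers and regulators compared, 0 met the 4-fold rule in any line. The brightest of them, PTPN11, a phosphatase acting on STAT signalling, had 10938 units in TCam-2, 10886 units in NT2D1, 11418 units in GCT27 and 10642 units in GCT44. Among the others SOCS3, a feedback inhibitor of JAK kinases, had 2097 units in GCT44 and 1965 in TCam-2, against 396 in NT2D1 and 260 in GCT27, while STAT3 had 3750 units in GCT27, against 474 in GCT44, 1267 in NT2D1 and 623 in TCam-2.

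Markers of other cell types were read beside these results. Of 6 blood cell markers measured, 0 were above the floor in GCT27, 1 in TCam-2, 1 in NT2D1 and 3 in GCT44, with summed intensities of 231 units in GCT27, 221 units in TCam-2, 256 units in NT2D1 and 380 units in GCT44. The brightest blood marker by mean, CSF1R, had at most 97.9 units, and LYZ reached 112 in GCT44. The pan-leukocyte gene PTPRC and the monocyte gene CD14 lay below the floor in all lines. Of 4 stromal markers, 2 were above the floor in GCT27, 3 in TCam-2, 3 in NT2D1 and 1 in GCT44, with sums of 2530, 3657, 2178 and 233 units in that order. Single genes carried these sums. LUM, a matrix proteoglycan, met the 4-fold rule in TCam-2 at 3354 units, against 63.5 in GCT44, 47.6 in GCT27 and 241 in NT2D1. THY1 had 2334 units in GCT27 and 1668 in NT2D1, against 124 in TCam-2 and 30.2 in GCT44. The part of these markers in the member results was not tested.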

How the data were processed

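The authors deposited 1 linear intensity value per probe set and array for 54675 probe sets on Affymetrix arrays, 1 array per line. The submitters' processing notes name RMA without a version. That method gives log2 values, while the deposited intensity values reach 55282 and have a mean of 500.1 on every array after 2% is trimmed from each end, so they were treated as linear. The genome build is not given in the sources used here. In the platform annotation 41097 probe sets carry 1 gene symbol and 1801 carry several, while 11777 are unlisted. For every gene the brightest probe set specific to it, by mean log2 value, was kept. The floor, filter and size rule are those of the report.

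limma (version 3.58.1, R 4.3.3) used unfloored log2 values, an intensity trend and Benjamini-Hochberg adjustment. The size rule and limma were run on simulated data with the spread of each gene capped, which gives no error rate for the arrays here. Figures used matplotlib 3.10.9. Members and lists were chosen with earlier results of these data known. The rule for named genes was every measured member (as a range where below the floor on all arrays), and from the other lists those meeting the size rule, at most 6 a line by widest margin, or otherwise the brightest. Others named from these lists, with SOX2 and MYD88 in GCT44, were chosen after their values were seen. Alternatives changed the probe set, floor, filter, scaling, margin, comparator and lines used. The probe set by linear mean and the scaling to spiked-in controls were added after seeing the data.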

Additional observations from a re-analysis of the deposited data

How the results depend on the processing

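No line has a replicate, so leaving out an array leaves out a subtype, and no paired analysis was possible because each group holds 1 array and the labels give no replicate numbers. The call of BST2 in TCam-2 held in each of the size-rule alternatives run. The call of IFIT1 in GCT27 was lost with the floor at the 70th percentile (252 units), where 0 members were higher in GCT27 (0.528% of all genes) and the IFIT1 margin was 1.74. That floor also took PSMB8 (0.41), MYD88 (1.08) and TRIM25 in GCT44 (0.77) under a margin of 2, and the median over probe sets gave 1.39 for TRIM25 in GCT44. With no floor, 1 member was higher in TCam-2 (MX1, against 1.93% of all genes) and 1 lower in NT2D1 (IFIT1, 1.33%). Quantile normalization gave 2 members higher in GCT27 (0.636% of all genes), and scaling to the spiked-in controls gave 3 (0.986%). That scaling moved the median difference of all genes to 0.28 in GCT27 and -0.31 in GCT44, where the members lay at 0.74 and -0.53. With a 2-fold margin, 3 members were higher in TCam-2 (4.62% of all genes) and 4 in GCT27 (3.16%). Against the mean of the other lines, 2 were higher and 2 lower in TCam-2 (3.24% and 2.4% of all genes), 1 higher and 1 lower in NT2D1 (2.07% and 1.39%) and 4 higher in GCT27 (2.52%). Leaving out a line gave 0 to 2 members higher and 1 to 2 lower in TCam-2, 0 to 1 higher and 0 to 1 lower in NT2D1, 1 to 2 higher in GCT27 and 0 to 1 lower in GCT44. Without the embryonal carcinoma line, IFI6 and SAMHD1 were the 2 higher in TCam-2 (2.5% of all genes) and TRIM22 the 1 higher in NT2D1 (1.85%). Without the yolk sac tumour line, TRIM22 was also lower in TCam-2 (1.86%) and IFI6 lower in NT2D1 (0.848%), and ISG15 was also higher in GCT27 (1.02%). Without the teratoma line, IFI16 was higher in TCam-2 (2.07%) and IFI6 lower in GCT44 (2.64%). Without the seminoma line, IFI6 was also higher in GCT27 (1.33%). limma called 0 genes in most alternatives, 1 with the median over probe sets and 0 to 13 when a line was left out, 13 without the yolk sac tumour line. No member was among them. The share of effector members highest in GCT27 was 42.3% with no filter (18.7% of all genes), 70% with the spiked-in scaling (40.6%) and 72.2% without the seminoma line (34%). The cause of these shifts was not tested.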

Other observations

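A further gene, chosen after its values were seen, was bright in the yolk sac tumour and seminoma lines. EPSTI1, an interferon-induced epithelial and stromal gene, had 2307 units in GCT44 and 1140 in TCam-2, against 38.4 in NT2D1 and 49.2 in GCT27, both below the floor. SOCS3 and IL10RB had the same pair of lines above the others.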
